A study of Ovis aries with 18 samples.

Results

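MicroRNAs with the seed names of the miR-34 and miR-449 family were followed in 2 kinds of sample from ovariectomized ewes (Ovis aries), extracellular vesicles flushed from the uterine lumen and dissected endometrium. A seed is the short 5′ stretch by which a miRNA selects its targets. Members were the rows of both deposited tables whose name or listed seed name carries miR-34a, miR-34b, miR-34c, miR-449a, miR-449b or miR-449c. The rule found 4 rows of 495 in the vesicle table and the same 4 of 761 in the endometrium table. None of them carries a sheep miRNA name. The rows 15_10278, 16_11384 and 12_6472 are listed with the seed of miR-34b, and 15_10275 with the seed of miR-34c-3p. All 4 are called miR-34-seed rows below as a short name only, since 15_10275 does not share the seed of the others. No row was listed under miR-34a, miR-449a, miR-449b or miR-449c.

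Every ewe was given progesterone (P4), 50 mg a day over 14 days. The P4+RU486 group also had 50 mg a day of RU486 (mifepristone), which blocks the progesterone receptor, on days 8 to 14. Each treatment was given to 5 different ewes, which gave 4 vesicle libraries (P01 to P04 with P4, R01 to R04 with P4+RU486) and 5 endometrium libraries per treatment. The vesicles came from a saline flush of the lumen. The whole endometrium was dissected, so the tissue holds stroma, glands, vessels and blood cells beside the surface epithelium. The ovariectomized ewes have no ovarian hormone of their own, which holds for both groups.

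In vertebrates miR-34b and miR-34c come from a single primary transcript, and the miR-449 cluster lies in an intron of the gene CDC20B. Both are abundant in multiciliated epithelia such as those of the airway and the oviduct, where they hold back cell cycle genes and Notch signalling while cells build their cilia. miR-34a is encoded elsewhere, is made in many tissues and is a transcriptional target of p53. The guide strands of miR-34a, miR-34b, miR-34c and miR-449 share their seed or nearly so. By its seed alone, a row listed with the seed of miR-34b may therefore be any of them. miR-34c-3p is the strand from the other arm of the miR-34c hairpin and has another seed. The rows are called here by their identifiers, since a shared seed is no identity and the counting may divide reads among such close relatives. The identifiers 15_10275 and 15_10278 are numbered 3 apart, and no other row of the vesicle table lay within 20 numbers of any of the 4. Both 15_10275 and 15_10278 carry the prefix 15. The rows 16_11384 and 12_6472, listed with the miR-34b seed as 15_10278 is, carry the prefixes 16 and 12 and are separate entries. What the prefix stands for is not stated in the sources used here. None of the 4 rows had the same values as another row.

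The vesicle libraries held 97202 to 1062646 reads in listed rows, and P01, P04 and R04 had the fewest. Values are normalized CPM, reads scaled to a common library size after adjustment by edgeR's TMM factor, in which 1 read was worth 1.10 to 10.4. P01 stood apart from the other libraries before any member was considered. It was the highest or the lowest of the 8 libraries in 48.5% of the 229 rows with a mean of at least 10, against 14.4% to 26.2% for each of the others. The list of leukocyte miRNAs (miR-150, miR-155, miR-223, miR-142 and miR-342) took 1.94% of the reads in P01 and 0.215% to 0.572% in the other 7 libraries. It matched 4 rows and none for miR-223, and the rows differ widely in level. With P4, miR-150 averaged 5859 ± 5314 normalized CPM (SD, n = 4), miR-155 200 ± 45.4 and the miR-142b-seed row 19.7 ± 20.1. A list share can thus rest on 1 row and is not a count of markers that rise together. The stromal list (miR-199a, miR-199b and miR-214) took 0.111% in P01 and 0.00715% to 0.0604% elsewhere. It matched 2 rows, of which 1 (miR-199a-3p) had a mean of at least 10. The miR-200 list, an epithelial marker, took 0.932% in P01 and 0.992% to 2.59% elsewhere. P01 was also the highest library for the smooth muscle list (1.73%, against 0.991% to 1.45% elsewhere) and for the single row of the liver list (0.0545%, against 0.00593% to 0.0369%). That liver row, 19_14926 with the miR-885 seed, separated the treatments, at 0.00979% to 0.0545% with P4 and 0.00593% to 0.00900% with P4+RU486. So did 23 of the 229 rows (10%) in normalized CPM, and the adjusted p of 19_14926 was 0.109 (limma). The erythroid list matched 1 row, 26_23579 with the miR-486 seed, which took 0.0262% to 0.791% over all 8 libraries. No row matched the endothelial miR-126. No miRNA outside the family was set as a marker of multiciliated cells, so that origin cannot be checked against other markers in these tables. The part of these other cells in the values below was not tested, and values are given with and without P01 where it moves them.

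The 4 rows together took 1.42% ± 0.314 (SD, n = 4) of the vesicle reads with P4 and 1.52% ± 0.334 (SD, n = 4) with P4+RU486. By library this was 1.86%, 1.39%, 1.27% and 1.14% in P01 to P04 and 1.36%, 1.86%, 1.14% and 1.74% in R01 to R04. The ranges of both treatments coincide almost entirely. These shares are of the reads of all listed rows, of which 123 held the same values as another row. With identical rows merged the mean shares were 1.52% with P4 and 1.61% with P4+RU486. The most abundant row of the table, miR-10a, averaged 257305 normalized CPM with P4. Among the 495 rows, 15_10278 ranked 21, 15_10275 ranked 32, 16_11384 ranked 79 and 12_6472 ranked 232 by the mean over the 8 libraries. The order 15_10278 over 15_10275 held in 7 of 8 libraries, with P01 the exception. 15_10275 was above 16_11384, and 16_11384 above 12_6472, in 8 of 8 libraries. These are orders of reads, as the table gives no lengths.

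**Figure D1:**
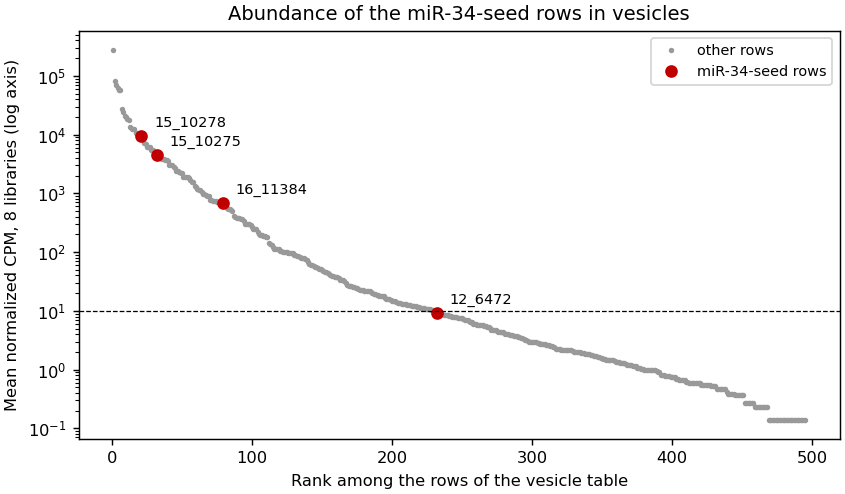
Mean normalized CPM over the 8 vesicle libraries (log axis) against rank for the 495 rows of the vesicle table, with the 4 miR-34-seed rows in red and the dashed line at the mean of 10 required for the test. The rows sit at ranks 21, 32, 79 and 232, and 12_6472 lies just under the line.

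No member passed the test between treatments in vesicles. In the limma fit over 229 rows, 0 of the 3 members tested passed the Benjamini-Hochberg threshold of 0.05, where 1 row of 229 (0.437%) did so. At an unadjusted p under 0.05 there were 0 of 3 members, against 33 of 229 rows (14.4%). edgeR on the recovered reads also called 0 of 3 members (1 of 229 rows), and so did DESeq2 (5 of 229 rows, 2.18%). The libraries of the treatments separated in 0 of the 3 tested members and in 23 of 229 rows (10%), a share from which nothing can be read about 3 rows. They also overlapped in 12_6472, which was not tested. In bulk vesicle RNA, fewer vesicles from one cell type and less of a miRNA per vesicle cannot be told apart.

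The row 15_10278, with the miR-34b seed, was the most abundant miR-34-seed row of the vesicles by its mean, and in 7 of 8 libraries. It stood at 5783, 10297, 11511 and 6793 normalized CPM in P01 to P04. With P4+RU486 it stood at 9113, 14409, 6125 and 12278 in R01 to R04. The highest values were in R02 and R04 and the lowest in P01 and R03, so the treatments overlapped. The means were 8596 ± 2742 (SD, n = 4) and 10481 ± 3629 (SD, n = 4). The fitted log2 difference was 0.27 with an SE of 0.31 and a 95% interval of -0.41 to 0.96 (adjusted p = 0.793, limma). It ranked between 14 and 27 in every library. Without the 3 libraries with the fewest reads the difference was -0.23, and it was 0.10 without P01 and 0.09 without R02.

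The row 15_10275, with the seed of miR-34c-3p, stood at 8281, 3327, 2224 and 3244 normalized CPM in P01 to P04. With P4+RU486 it stood at 4822, 4042, 4652 and 5293 in R01 to R04. The P4+RU486 libraries lay close together, with an SD of 517, while P4 had an SD of 2721. P01 was above every P4+RU486 library, and the other 3 P4 libraries were below all 4 of them. The means were 4269 ± 2721 (SD, n = 4) with P4 and 4702 ± 517 (SD, n = 4) with P4+RU486. The fitted log2 difference was 0.32 with an SE of 0.35 and a 95% interval of -0.45 to 1.08 (adjusted p = 0.790, limma).

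P01 decides the size of that difference. Without it, 15_10275 averaged 2932 ± 614 (SD, n = 3) with P4, 2224 to 3327, and the P4+RU486 mean was 1.60 times as high. The log2 difference was then 0.70 (SE 0.24, 95% interval 0.18 to 1.21), with an unadjusted limma p of 0.0121 and an adjusted p of 0.209, so it did not pass either (1 of 225 rows did, 0.444%). Rows whose treatments did not overlap without P01 numbered 36 of 225 (16%), and an unadjusted p under 0.05 came in 31 of 225 rows (13.8%). Without P03 the difference was 0.07 (limma adjusted p = 0.969). Leaving out P01, P04 and R04, the 3 libraries with the fewest reads, left 2 P4 and 3 P4+RU486 libraries. This fit was chosen after seeing the data, and its log2 difference was 0.72 (SE 0.25). Its unadjusted limma p was 0.0239 and its adjusted p 0.275, and the treatments did not overlap. The shares of all rows in that fit are given with the next member. P01 also had the highest leukocyte and stromal shares given above. Their part in its 15_10275 value was not tested.

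The row 16_11384, also with the miR-34b seed, was less abundant, at 2.72% to 12.4% of the level of 15_10278. It stood at 157, 1281, 1122 and 601 normalized CPM in P01 to P04. With P4+RU486 it stood at 401, 667, 387 and 793 in R01 to R04. P02 and P03, the libraries with most reads, were the highest, and P01 was the lowest, with 20 reads of this row. The means were 790 ± 512 (SD, n = 4) and 562 ± 201 (SD, n = 4). The fitted log2 difference was -0.18 with an SE of 0.58 and a 95% interval of -1.44 to 1.07 (adjusted p = 0.913, limma). That interval is the widest of the 3 tested members.

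The direction of 16_11384 rests on single libraries. Without P01 it averaged 1001 ± 355 (SD, n = 3) with P4, and P04 at 601 still lay inside the P4+RU486 range. The log2 difference was then -0.83 (SE 0.37), with an unadjusted limma p of 0.0427 and an adjusted p of 0.315. Without P02 the difference was 0.18 and without P03 0.11. Without P01, P04 and R04, 2 P4 libraries (P02 and P03) and 3 P4+RU486 libraries remained. The log2 difference in that fit, chosen after seeing the data, was -1.35 (SE 0.32). Its unadjusted limma p was 0.00458 and its adjusted p 0.254, and the treatments did not overlap. In that fit 1 of 228 rows passed (0.439%), 35 had an unadjusted p under 0.05 (15.4%), and in 86 rows (37.7%) the treatments did not overlap. With depth as a covariate it was 0.04. The part of depth in the high values of P02 and P03 was not tested beyond that fit.

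The row 12_6472, the third with the miR-34b seed, was close to the limit of detection. It had 1, 2, 17 and 0 reads in P01 to P04 and 3, 7, 2 and 0 reads in R01 to R04. A count of 0 allows up to 28.6 normalized CPM in P04 and 31.3 in R04 (3 reads, for counting error only). Its mean of 9.34 normalized CPM over the 8 libraries was under the minimum of 10. The nearest rows below and above that minimum were at 9.57 and 10.2. With no filter the log2 difference was 0.51 (SE 1.36, limma adjusted p = 0.901). Its mean reached 10 in some fits that left out a library, where the difference was -0.30 without P04 and 1.48 without R04, the 2 libraries at 0 reads, and 0.45 without P02. A difference between treatments was not detectable at this depth.

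**Figure D2:**
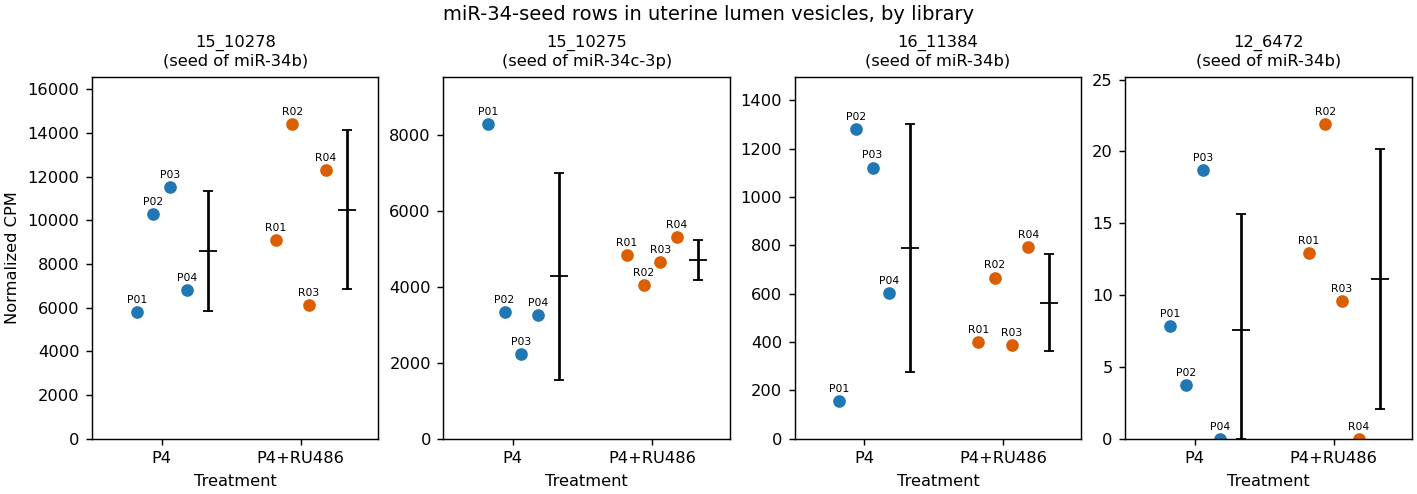
Normalized CPM of the 4 miR-34-seed rows in each vesicle library (points, with library names) by treatment, with the mean and SD beside each group (n = 4, bars cut at 0) and a separate axis from 0 for each row. P01 is the highest point for 15_10275 (8281) and the lowest for 16_11384 (157), and the treatments overlap in every panel.

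The make-up of the miR-34-seed reads varied between libraries. 15_10278 took 40.6%, 69.1%, 77.4% and 63.9% of the reads of the 4 rows in P01 to P04 and 63.5%, 75.3%, 54.8% and 66.9% in R01 to R04. 15_10275 took 58.2%, 22.3%, 14.95% and 30.5% in P01 to P04 and 33.6%, 21.1%, 41.6% and 28.8% in R01 to R04. P01 was thus the only library in which the miR-34c-3p seed row outweighed 15_10278, at 1.43 times its level, against 0.193 to 0.760 times in the other 7. The median ratio was 0.400 with P4 (0.193 to 1.43, n = 4) and 0.480 with P4+RU486 (0.281 to 0.760, n = 4).

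Relative to 15_10278, the level of 16_11384 was 2.72%, 12.4%, 9.75% and 8.85% in P01 to P04. With P4+RU486 it was 4.40%, 4.63%, 6.32% and 6.46% in R01 to R04. P02, P03 and P04 were above all P4+RU486 libraries and P01 was below all of them. This ratio was chosen after its values were seen, and no test was made on it. The means were 8.44% ± 4.11 (SD, n = 4) and 5.45% ± 1.09 (SD, n = 4). The same pair of rows share a listed seed, so how the counting divided reads between them bears on the ratio and cannot be read from the table.

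**Figure D3:**
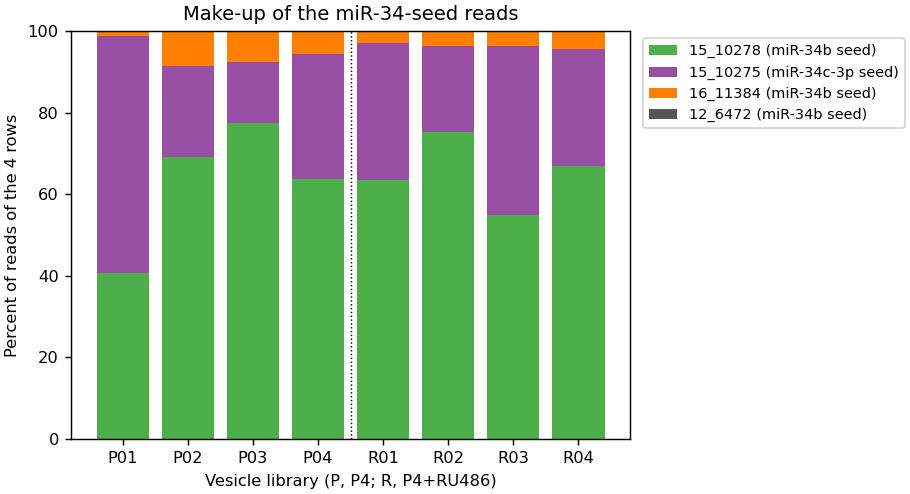
Share of the reads of the 4 miR-34-seed rows taken by each row (stacked bars, percent) in the 8 vesicle libraries, P4 left and P4+RU486 right of the dotted line. 15_10278 takes 54.8% to 77.4% in every library but P01, where it takes 40.6% and 15_10275 takes 58.2%.

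Over 20 alternatives of scale, filter, scaling, test and samples, no member passed the threshold. The estimate for 15_10275 was above 0 in 20 of 20 alternatives, from 0.06 to 0.72. The estimate for 15_10278 was above 0 in 19 of 20 and that for 16_11384 was below 0 in 17 of 20, from -1.35 to 0.18. The lowest adjusted p among these alternatives was 0.209 for 15_10275, 0.491 for 15_10278 and 0.254 for 16_11384.

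**Figure D4:**
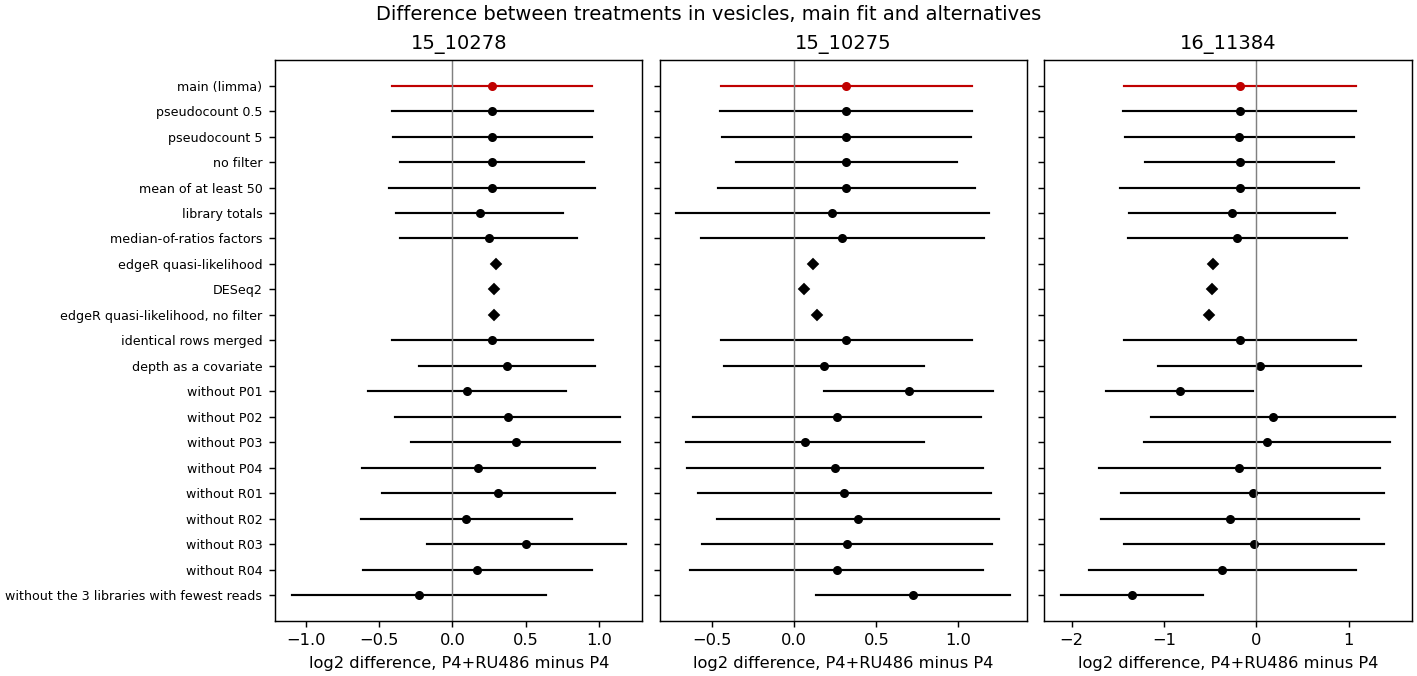
Log2 difference between P4+RU486 and P4 in vesicles for 3 miR-34-seed rows in the main limma fit (red) and 20 alternatives (black), with 95% intervals as lines where limma gave them and diamonds for edgeR and DESeq2. The points for 15_10275 and 16_11384 move farthest from 0 without P01 and without the 3 libraries with the fewest reads.

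In the endometrium, 16_11384 was the row with the smallest adjusted p of all 761 in the authors' deposited table. The authors' deposited table gives it a fold of 8.10 (adjusted p = 3.6e-06), which ranked 7 by size. The authors' deposited table called 9 of 761 rows (1.18%). Which treatment is the numerator of the fold is not stated, so the sign stands as coded and does not say which treatment was higher. The other members were not called: the authors' deposited table gives 15_10278 a fold of 1.71 (adjusted p = 0.612) and 15_10275 one of 1.66 (adjusted p = 0.531), with the same sign as 16_11384. The row 12_6472 had the opposite sign in the authors' deposited table, at -1.22 (adjusted p = 0.575). The median size of fold over all rows was 1.25, and 15_10278 and 15_10275 ranked 162 and 172 by size. The endometrium values by library were not used here, so neither the level of these rows in tissue nor its spread over ewes is given.

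In the authors' deposited table for vesicles none of the 4 rows was called, where 9 of 495 rows (1.82%) were. A positive fold there is higher in P4. The authors' deposited table gives 16_11384 a fold of 1.49 (adjusted p = 0.85), 15_10278 one of -1.22 (adjusted p = 0.99), 15_10275 one of -1.37 (adjusted p = 0.96) and 12_6472 one of -1.34 (adjusted p = 0.96). These signs are those of the group means in the deposited values for each of the 4. A difference in response between vesicles and tissue was not tested, since the tissue folds have no named direction.

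**Figure D5:**
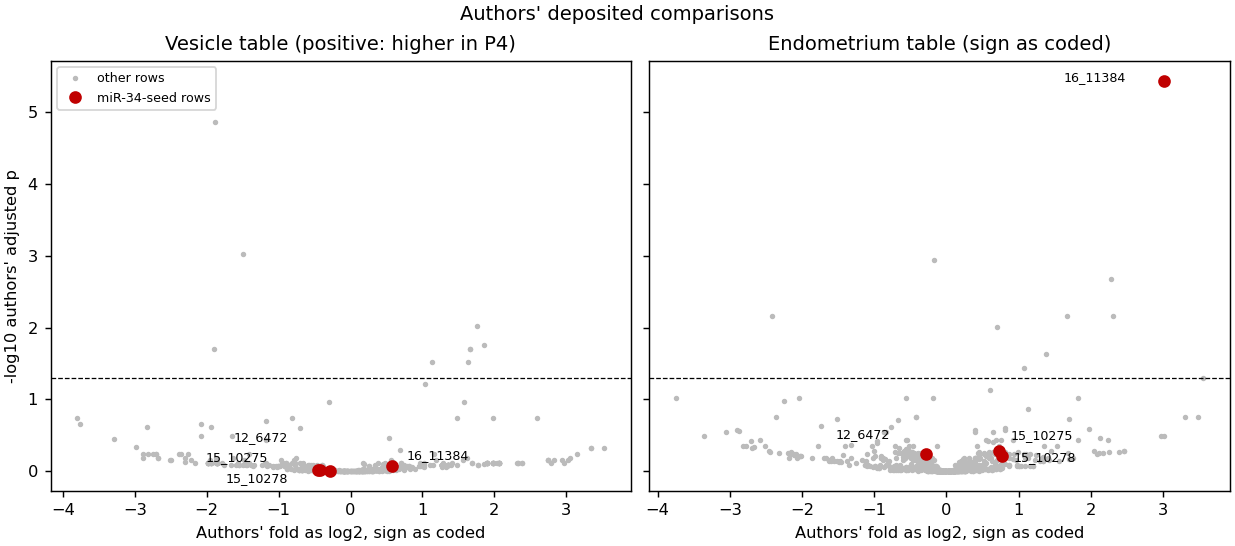
The authors' deposited fold (as log2, sign as coded) against -log10 of the authors' adjusted p for every row of the vesicle table (left) and the endometrium table (right), with the miR-34-seed rows in red and the dashed line at 0.05. In the endometrium 16_11384 stands highest of 761 rows, while the other 3 members there and all 4 in vesicles lie below the line.

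Lists of related miRNAs are given beside the members as a description. A list of the miR-200 family, which holds back the change to mesenchyme, the miR-183 cluster of sensory epithelia, miR-203, miR-205 and miR-375 matched 13 rows, of which 10 were tested. Of these 0 passed, where 0.437% of all 229 rows did, so few calls could come from a list of this size. Estimates were above 0 in 8 rows and below 0 in 2, where 118 of all 229 rows were above 0. The median log2 difference was 0.28, against 0.04 over all 229 rows. A pair of rows with the miR-183 seed holds identical values. Of the 9 distinct rows 7 were above 0 and 2 below, with a median of 0.16. The estimate farthest from 0 went the other way from the median. It was that of X_36488, with the miR-96 seed, at 48.4 normalized CPM with P4+RU486, 0.339 times its level with P4. Its log2 difference was -1.68 (SE 0.47, adjusted p = 0.141 by limma). The treatments did not overlap in it, as in 23 of 229 rows (10%). Another row with the miR-96 seed, 5_29334, was higher with P4+RU486, at 106 against 62.5 with P4 (log2 difference 0.54, SE 0.50). JH923873.1_37345 and JH923873.1_37349, also with that seed, were not tested. The other row below 0 was miR-200b (-0.43, SE 0.45). The row 3_27218, with the miR-200a seed, was at 2000 with P4 and 2801 with P4+RU486 (log2 difference 0.45, SE 0.32, adjusted p = 0.569 by limma).

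A list of other miRNAs tied to p53 (miR-192, miR-194, miR-215, miR-107, miR-143, miR-145, miR-15a and miR-16) matched 11 rows. Of the 10 tested 0 passed, against the same 0.437% of all rows. Estimates were above 0 in 4 and below 0 in 6, with a median of -0.03, and they ranged widely around it. miR-107 differed by 1.003 (SE 0.25, adjusted p = 0.109 by limma). X_35722, with the miR-16b seed, differed by -1.54 (SE 0.61, adjusted p = 0.299 by limma) and the miR-145 seed row 5_29566 by -1.43 (SE 0.59, adjusted p = 0.317 by limma). The other tested rows of miR-16b or its seed did not follow X_35722. They were miR-16b itself (-0.48), 1_3299 (-0.03), 11_5611 (-0.04) and 10_4035 (0.29). The list rows other than 3_27218 were chosen to be named after their values were seen.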

How the data were processed

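Libraries made with the Illumina TruSeq small RNA kit (labels' protocols) were trimmed with cutadapt 1.11 and analysed with edgeR on the sheep build Oar_v3.1, per the submitters' processing notes. Not given in the sources used here are the aligner, miRNA caller and filters. The authors' vesicle values, the deposited signal, are CPM of an adjusted library size. Dividing by the value of 1 read gave whole numbers for 100% of values in all 8 columns (within 0.1), and these recovered reads were used where counts were needed. The authors also deposited a signed fold change, treated as a score, and an adjusted p-value. In the vesicle table its sign was that of P4 minus P4+RU486 in 421 of 465 rows with a fold size over 1.05. Vesicle columns name the treatment by initial but not the ewe. The 10 endometrium columns of values per library match no label and were not used.

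The main test was limma 3.58.1 (trend, R 4.3.3) on log2(value + 1), over the 229 rows with a mean of at least 10, with Benjamini-Hochberg adjustment over all of them. Differences are P4+RU486 minus P4 on that scale. In low rows, where 1 read was worth up to 10.4 normalized CPM, they can be larger or smaller than the log2 ratio of the group means. The fit and the recovery of reads were tested on simulated data. edgeR 4.0.16 (quasi-likelihood, 1 row called) and DESeq2 1.42.0 were run on the recovered reads as alternatives. The libraries carry no molecular identifiers, so floors cover counting error only. Every member was to be named; lists matched by number in the name or the seed name. The most abundant row and the 3 rows most like 15_10278 were the other rows to be named. 3_27218 is one of those 3. Members and lists were chosen with earlier results of these data known. Ewes are separate animals, so the p-values set the difference between treatments against the spread between libraries. That spread holds differences between ewes together with those of depth and counting error.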

Additional observations from a re-analysis of the deposited data

How the results depend on the processing

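The number of miR-34-seed rows past the threshold was 0 in each of the 20 alternatives. The number of all rows past it, 1 in the main limma test, was 5 with DESeq2, 6 with edgeR without a filter and 6 with depth as a covariate, and 0 to 2 with 1 library left out (2 without P02, 0 without P04, R01, R03 or R04). The cause was not tested. The estimate for 16_11384 reversed with depth as a covariate (0.036) and without P02 (0.18) or P03 (0.11), and ranged from -0.83 to 0.18 with 1 library left out. That for 15_10278 reversed without the 3 libraries with the fewest reads (-0.23), an alternative chosen after seeing the data. With 1 library left out it ranged from 0.09 to 0.51, and 15_10275 from 0.07 to 0.70. The share of reads was 1.27% to 1.51% with P4 and 1.41% to 1.65% with P4+RU486 when 1 library was left out. No paired analysis was possible because the treatments went to different ewes and the columns do not name the ewe. The endometrium alternatives were not run, as its columns could not be tied to groups. Depth limits 12_6472, which had 0 to 17 reads per library.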

Other observations

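Of 226 other tested rows, those whose log2 values most resembled 15_10278 over the 8 vesicle libraries were 2_16700, with the seed of miR-27a-3p, 13_7356, with the seed of miR-2284j, and 3_27218, with the seed of miR-200a. Pearson's r was 0.88, 0.87 and 0.87, and Spearman's rho 0.86, 0.74 and 0.95. The median r over the 226 rows was 0.15. These rows were picked as the highest of many, share libraries and depth with 15_10278, and are given as a description. 2_16700 averaged 19008 normalized CPM with P4 and 21005 with P4+RU486, 13_7356 averaged 41.2 and 44.6, and 3_27218 averaged 2000 and 2801.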
